A study of Mus musculus with 4 samples.

Results

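RAW 264.7 cells exposed to Lactobacillus bulgaricus for 6 h were compared with untreated cells of the same line, 1 array against 1 array. RAW 264.7 is a transformed mouse macrophage-like line that came from a BALB/c tumour induced by Abelson leukaemia virus, and L. bulgaricus is a lactic acid bacterium used to make yoghurt. The treated cells had received the bacteria at a multiplicity of infection (MOI) of 10, and the untreated cells had received none. The labels name no genetic change or further treatment in either group. Each array carried RNA pooled in equal amounts from 3 biological replicates, labelled with Cy5 and hybridised beside a Cy3 common reference that the labels describe as a pool of all groups. These 2 arrays belong to a series of 4, the others being from 1 h and 4 h, and all shared 1 slide on which the position followed the time, so time and position cannot be told apart.

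A gene's value is log2 of Cy5 over Cy3, and the comparison is its difference, 6 h minus untreated, with the change of each channel beside it. Genes counted as measured when a probe stood well above background for Cy5 and Cy3 alike on each of the 2 arrays, which held for 10296 of the 20967 genes with a named probe. Genes whose difference reached 1 in size, a 2-fold change, were called. By this rule 47 genes were called higher, or 0.456% of those measured, and 48 were called lower, or 0.466%, together 0.923%. With 1 array a group there is no replicate array and no test, so no p-value is given and precision is limited by how few arrays there are. Repeat spots of 218 probes gave a pooled SD of 0.13 for a difference, which covers spot error and leaves out the spread between cultures.

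Macrophages sense bacterial cell wall components and nucleic acids through Toll-like and other pattern recognition receptors, and signal through NF-kB, MAP kinases and interferon pathways. The early wave of transcription factor and cytokine genes is followed over hours by secondary mediators, by stress and metal-binding proteins, and by feedback that silences the first wave. Resting macrophage genes such as the fractalkine receptor are commonly turned down when these cells are activated.

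Across the measured genes the median difference was -0.01 and its SD 0.31, and 91.7% of genes lay within 0.5 of 0. The reference, which should hold the same RNA on both arrays, moved by at least 1 in 264 genes (2.56%) when read as a single channel. In the 47 higher genes the change lay mostly in the cells' own channel: Cy5 alone was higher by at least 1 in 37 and by 0.5 to 1 in 9, with a median of 1.37, while the median of Cy3 was 0.03. In the 48 lower genes the channels were mixed. Cy5 alone was lower by at least 1 in 19 and by 0.5 to 1 in 12, lower by under 0.5 in 8 and not lower at all in 9, and the reference had moved by at least 1 in 13. Higher genes started dim, with a median processed Cy5 signal (background-subtracted and dye-normalized by the scanner software) of 285 in untreated cells, whereas the lower genes started at 2556. Of the 95 called genes, 86 rested on 1 probe.

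**Figure D1:**
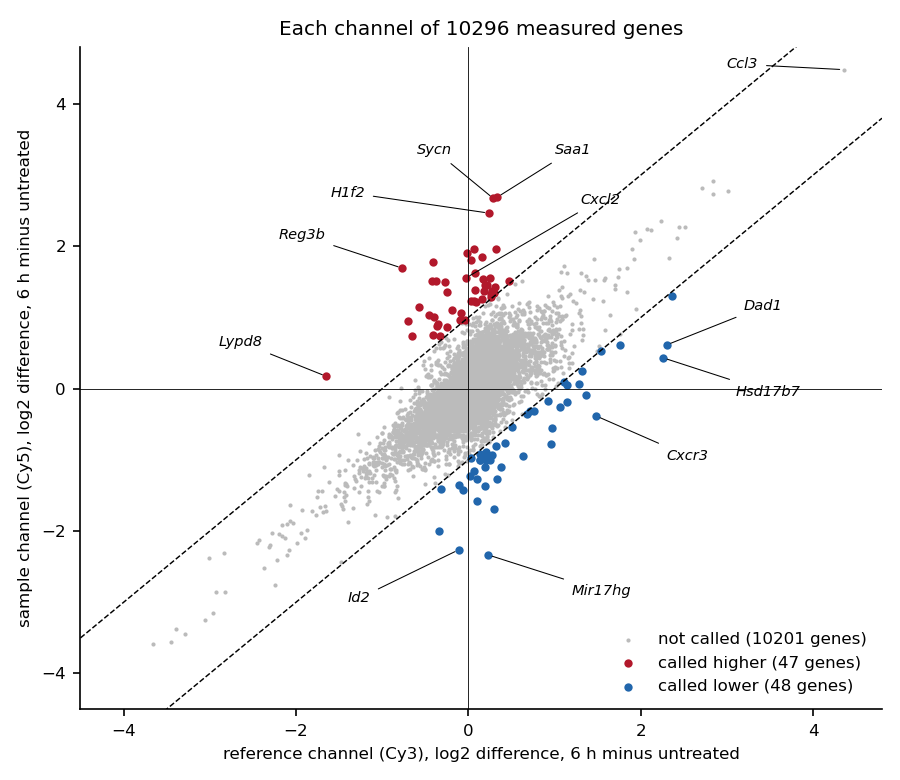
Log2 difference (6 h minus untreated) of the Cy3 reference on the horizontal axis and of the Cy5 sample on the vertical axis for 10296 measured genes, 1 point a gene, with the 47 genes called higher in red and the 48 called lower in blue. The dashed lines mark a ratio difference of 1 in size: the red points lie above the middle in Cy5, while 13 of the blue points are displaced by at least 1 along the reference axis.

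Secreted mediators of inflammation were higher at 6 h in 3 cases among 25 measured chemokine and cytokine genes; 1 was called lower and the rest were not called. Cxcl2 encodes a chemokine that draws neutrophils. Its log2 ratio was -0.84 on the untreated array, -0.22 at 1 h, 0.17 at 4 h and 0.74 at 6 h. The 6 h array was thus the highest of the 4 and the untreated array the lowest. Its processed Cy5 signal was 324 in untreated cells and 1198 at 6 h, with a reference of 733 and 581, and the difference in ratio was 1.58. Csf3, the granulocyte growth factor, had ratios of -0.51, -0.27, 0.18 and 0.76 on the same 4 arrays, with Cy5 signals of 128 untreated and 498 at 6 h. Cxcl10, which attracts activated T cells, had -0.44, -0.20, 0.28 and 0.67, and its Cy5 signal was 301 untreated and 560 at 6 h. For both the 6 h array stood highest, and the differences were 1.27 for Csf3 (2.19 from the scanner's processed signals) and 1.11 for Cxcl10. Among the 13 chemokine ligands measured, 9 lay above 0 and 2 were called higher, with a median of 0.13. Ccl6, at 0.87, missed the rule, and Ccl2, which attracts monocytes, stood at -0.67 ± 0.05 (SD of 8 spots on 1 pair of arrays). For Ccl3 both channels of the spot moved together: Cy5 was higher by 4.48 and Cy3 by 4.36, which left a ratio difference of 0.13. Its processed Cy5 and Cy3 signals were 349 and 444 on the untreated array and 13417 and 13660 at 6 h. Ccl4, a close relative of Ccl3, stood at 0.02. Of 12 cytokines and colony-stimulating factors, 4 lay above 0. Il1b and Il6 were not well above background in either channel, and Il10 was not in the untreated reference, so these cytokines were not measured. Tnf stood at -0.26 ± 0.16 (SD of 9 spots), although its processed Cy5 signal was higher, at 16089 untreated and 20460 at 6 h. Its reference was 16960 and 25872. Ebi3, a subunit of interleukin-27, was called lower at -1.15 although its Cy5 signal was higher by 0.62 and its reference by 1.76.

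Ptgs2, the inducible cyclooxygenase that starts prostaglandin synthesis, was the best replicated of the called genes within the array, with 9 spots. Its ratio was -0.86 untreated, -0.20 at 1 h, -0.42 at 4 h and 0.21 at 6 h, again lowest without bacteria and highest at 6 h. The difference of 1.06 had a spot SD of 0.08, and the single spots ran from 0.96 to 1.16. The value was 0.97, just short of the rule, when arrays were centred on the median without loess. Cy5 alone was higher by 0.73, short of the rule, and the reference differed by -0.33. The processed Cy5 signal was dim, at 91 untreated and 218 at 6 h, with a reference of 316 and 174. It was the 1 called member of 15 measured genes of the prostaglandin and leukotriene pathway, of which 10 lay above 0; Ptgs1, the constitutive enzyme, stood at 0.22 and the synthase Ptges at -0.09.

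Promoters of the 2 called chemokine genes are shown because both hold a short NF-kB core, GGNNNTTCC on either strand, at 2 places. The stretches are the 250 bases before the start of transcription in RefSeq (GRCm38.p6), 5′ to 3′ on the gene's strand, with matches in capitals; Cxcl2 lies at chr5:90903649-90903898 on the plus strand and Cxcl10 at chr5:92348890-92349139 on the minus strand.
Cxcl2: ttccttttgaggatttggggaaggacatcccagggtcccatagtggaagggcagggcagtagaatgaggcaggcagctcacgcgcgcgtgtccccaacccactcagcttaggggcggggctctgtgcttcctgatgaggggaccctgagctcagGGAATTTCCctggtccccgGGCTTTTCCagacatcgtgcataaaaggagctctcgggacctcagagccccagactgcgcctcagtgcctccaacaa
Cxcl10: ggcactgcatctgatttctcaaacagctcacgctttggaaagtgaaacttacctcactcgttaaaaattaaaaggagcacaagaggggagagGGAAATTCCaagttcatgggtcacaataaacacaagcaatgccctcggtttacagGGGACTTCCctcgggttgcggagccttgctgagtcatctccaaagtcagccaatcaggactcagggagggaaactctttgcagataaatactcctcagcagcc
The core occurred in 28.6% of 42 promoters of genes called higher and in 14.6% of 48 promoters of genes called lower. It occurred in 21.9% of all 10614 promoters of measured genes. Most of these belong to uncalled genes, as must be so when 0.923% of genes were called. These shares count the 250 bases before and the 50 after each start, and a match is only a description of the letters.

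Among receptors, Cx3cr1 and Cxcr3 were called lower and 0 were called higher. Cx3cr1, the fractalkine receptor, was measured by 3 probes, and all 3 were lower, at -1.82, -1.70 and -1.53. Its mean ratio was 0.63 untreated, 0.51 at 1 h, -0.73 at 4 h and -1.06 at 6 h, so the first pair of arrays stood above the second. The processed Cy5 signal was 4319 in untreated cells and 1437 at 6 h against a reference of 2663 and 3112. Cxcr3, the receptor of Cxcl10, was also called lower, at -1.87, but its Cy5 signal alone differed by only -0.38 while the reference was higher by 1.49. Of 27 measured cytokine and chemokine receptors, 19 lay below 0 in the ratio and 14 in Cy5 alone, with medians of -0.12 and -0.03. Il6ra, a chain of the interleukin-6 receptor, stood at -0.83, Il17ra at -0.93 and Tnfrsf12a, the TWEAK receptor, at -0.97. Among 35 pattern recognition receptors and adaptors 22 lay below 0 in the ratio and 18 in Cy5 alone, with medians of -0.16 and -0.03, and 0 were called. Tlr7 stood at -0.73, Tlr2 at -0.62 ± 0.16 (SD of 10 spots) and Tlr4 at -0.17, whereas the C-type lectin receptor Clec4e stood at 0.77. Pdcd1, the PD-1 checkpoint receptor, had ratios of 0.57, 0.54, -0.61 and -0.92 in the order of time and was called lower at -1.48. Its ligand Cd274 stood at 0.92 with Cy5 higher by 0.69.

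NF-kB subunits, kinases and inhibitors had a median of -0.02, with 1 of 30 called. That gene, Nfkbid, an atypical inhibitor, was lower by 1.18, and the inhibitor Tnfaip3 stood at 0.89 with a reference that was higher by 0.63. Nfkbia, the classical inhibitor, stood at 0.07, the cytokine signalling inhibitor Socs3 at -0.20 and the mitochondrial superoxide dismutase Sod2 at 0.16. The ratio of Nos2, which makes nitric oxide in activated macrophages, differed by -0.61 with Cy5 at 0.18, and Arg1 and Cd86 were not well above background. Immediate early genes, whose transcription needs no new protein synthesis, were split 15 above and 16 below 0. Fos, which pairs with Jun in AP-1, had 5 spots with a mean of -1.24 and a spot SD of 0.09. Its ratios of 0.10, 0.10, -0.13 and -1.14 put the 6 h array alone far below the others. Fosl2 stood at -1.25 (-0.55 when dim probes were kept), Egr2 at -0.97 and Fosl1 at -0.83, while Jun stood at 0.67 and Atf3, a stress-induced repressor, at 0.94. Ier3, an early gene of stressed cells, was called higher at 1.65, of which Cy5 alone carried 0.95 and the reference -0.70.

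The metallothionein Mt2 and the heme oxygenase Hmox1 were called higher at 6 h. Mt2, which binds zinc and copper, had ratios of -1.12 and -1.06 on the untreated and 1 h arrays and of 0.53 and 0.49 on the 4 h and 6 h arrays, so its difference of 1.61 was already present at 4 h. Its Cy5 signal was 14769 in untreated cells and 40050 at 6 h. Mt1 followed at 0.94, short of the rule, with Cy5 signals of 24067 and 38267. In the same list of 18 measured genes the zinc importer Slc39a10 was called lower at -1.10 and Slc39a1 stood at -0.75; the median of the list was -0.08.

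The Mt2 promoter is printed because it holds the metal response core, TGCACNC or TGCGCNC, at 3 places in the 250 bases before its start, chr8:94172368-94172617 on the plus strand (RefSeq, GRCm38.p6), matches in capitals.
Mt2: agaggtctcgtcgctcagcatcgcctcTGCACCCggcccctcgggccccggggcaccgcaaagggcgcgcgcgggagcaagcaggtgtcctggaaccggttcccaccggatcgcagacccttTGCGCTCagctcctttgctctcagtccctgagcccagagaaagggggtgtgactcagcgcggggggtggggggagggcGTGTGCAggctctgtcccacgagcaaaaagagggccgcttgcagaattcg
The core is common: 38.1% of promoters of higher genes, 33.3% of promoters of lower genes and 35.3% of all promoters of measured genes held it, so its presence did not mark the called genes.

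Hmox1, the enzyme that breaks down heme, was called higher on both of its probes, at 1.31 and 1.44. Its ratio was -0.45 untreated, -0.38 at 1 h, 0.50 at 4 h and 0.93 at 6 h, highest on the last array. The Cy5 signal was 11470 in untreated cells and 29864 at 6 h, while the reference stayed at 18156 and 18145. It belongs to the targets of NRF2, the transcription factor of the antioxidant response, of which 24 of 31 measured lay above 0 with a median of 0.23, beside 47.9% of all measured genes above 0 and a median of -0.01. Hmox1 was the 1 member called. Below the rule stood the autophagy receptor Sqstm1 (0.92), the ferritin light chain Ftl1 (0.61), the sulfiredoxin Srxn1 (0.55), and Txnrd1 and Gsr (both 0.51), reductases of thioredoxin and glutathione. Over the other ways of processing the values the median of the list ran from 0.10 to 0.24. The antioxidant element, TGACNNNGC, was found in 39.4% of 33 promoters of this list and in 14.5% of all promoters. Among called genes it was in 11.9% of promoters of higher genes and in 29.2% of promoters of lower genes.

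Stress and growth arrest genes gave further calls. Gadd45b, a sensor of stress upstream of p38, had ratios of -0.65, -0.43, -0.17 and 0.64 and was called at 1.29. Ddit4, an inhibitor of mTORC1, had -0.73, -0.25, 0.01 and 0.51 and was called at 1.24, with Cy5 signals of 944 and 3064. In both the 6 h array was the highest and the untreated array the lowest. Of 24 measured CDK inhibitors, GADD45 genes and p53 targets, Gadd45b and Ier3 were the 2 called. Cdkn1a stood at -0.12, Mdm2 at -0.37 and Sesn2 at -0.78. The Cdkn1a value is a mean over probes, and its probe with 10 spots stood at 0.03 ± 0.07 (SD of spots). The list's median of 0.12 turned below 0 with median centring (-0.01) and in Cy5 alone (-0.01).

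**Figure D2:**
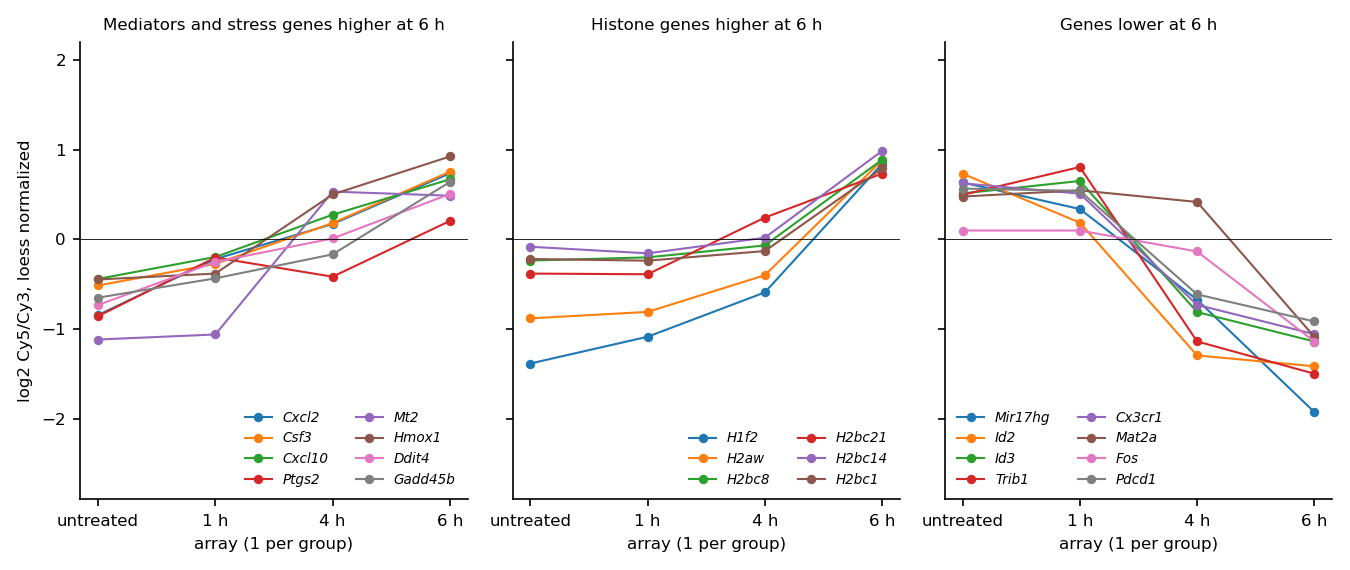
Log2 Cy5/Cy3 for untreated cells and after 1 h, 4 h and 6 h, 1 array a group, for 8 mediators and stress genes, 6 histone genes and 8 genes called lower at 6 h, 1 line a gene. Every plotted gene of the first 2 panels is higher on the 6 h array than on the untreated array and every plotted gene of the third is lower, for example Mir17hg at 0.64 and -1.93.

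Histone genes of the H2B class and 1 linker histone stood out among the higher genes. H1f2, a linker histone, had ratios of -1.39 untreated, -1.09 at 1 h, -0.59 at 4 h and 0.85 at 6 h, with the largest step between the last 2 arrays. Its Cy5 signal was 1117 in untreated cells and 6777 at 6 h, the reference was 3147 and 3526, and the difference was 2.23. H2bc14 had ratios of -0.08, -0.16, 0.02 and 0.99, and H2bc1 had -0.22, -0.24, -0.13 and 0.79. In both only the 6 h array stood apart from the others. The differences of the called H2B genes were 1.71 for H2bc4, 1.13 for H2bc8 (2.70 from processed signals), 1.12 for H2bc21, 1.07 for H2bc14 and 1.01 for H2bc1; the last 2 were 0.94 and 0.88 with median centring. H2bc8 was dim, with processed Cy5 signals of 26.7 untreated and 220 at 6 h on 1 spot. By class, 5 of 7 measured H2B genes and 1 of 6 H1 genes were called higher, and 0 of 9 H2A, 0 of 7 H3 and 0 of 6 H4 genes were. The H2A members of the list ran from -0.72 to 0.33 and the H4 members from -0.17 to 0.13. H2aw, an H2A gene outside this list, was called higher at 1.77. H2bc23 was not well above background in untreated cells and was at least 2.42-fold higher in Cy5, but its reference was not well above background on both arrays. Over the whole list 6 of 35 were called higher and the median was -0.00, so the calls lay in 2 classes of the list. Histone genes of 1 class are near-identical copies, so the signals of single members are uncertain.

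**Figure D3:**
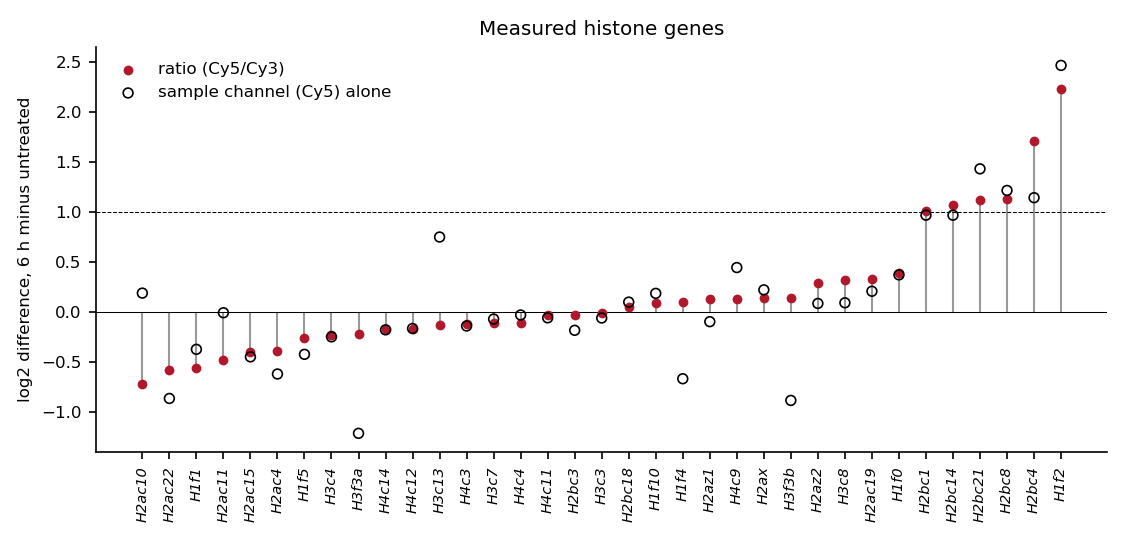
Log2 difference (6 h minus untreated) of 35 measured histone genes, sorted, with the ratio in filled red points and Cy5 alone in open points; the dashed line marks 1. H1f2 (2.23) and 5 H2B genes lie above the line in the ratio, and the other 29 lie between -0.72 and 0.39.

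No measured gene of the proliferation lists was called, but only 0.923% of all measured genes were, so the lack of calls sets these lists little apart. Most members lay below 0, beside 5368 of all 10296 measured genes. Of 48 measured DNA replication and G1/S genes, 41 lay below 0 and 0 were called, with a median of -0.20; of 43 G2/M and mitosis genes, 40 lay below 0 and 0 were called, with a median of -0.18. Mki67, the Ki-67 proliferation antigen, stood at -0.70 and -0.66 on its 2 probes, Pold1, the catalytic subunit of DNA polymerase delta, at -0.71, and Mcm10, an origin factor, at -0.65. Hmmr stood at -0.89, but only through its reference, since Cy5 differed by -0.00. In Cy5 alone 34 of the 48 and 33 of the 43 lay below 0, and over all ways of processing tried the medians stayed below 0, from -0.35 to -0.16 and from -0.34 to -0.17. Single values the size of the medians of -0.20 and -0.18 are near the pooled spot SD of 0.13. The named genes lie further from 0, but that SD leaves out the spread between cultures.

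Mir17hg, the host transcript of the miR-17~92 cluster, was the lowest of all measured genes. Its ratio was 0.64 in untreated cells, 0.34 at 1 h, -0.67 at 4 h and -1.93 at 6 h, each array below the one before. The Cy5 signal was 725, 693, 264 and 40.5 on these arrays, while the reference was 441, 530, 534 and 559. The difference was -2.56, or -4.50 from the processed signals, on 1 probe with 1 spot. The probe reads the host RNA and not the mature microRNAs, which were not measured. RefSeq (GRCm38.p6) places 6 hairpins at chr14:115043671-115044506 on the plus strand, of which 2 overlap its Mir17hg model at chr14:115044390-115046728. The usually dominant arm of each is shown because the cluster's members fall into groups by seed (bases 2 to 8, in capitals), through which a microRNA pairs with its targets.
miR-17-5p: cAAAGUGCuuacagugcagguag
miR-20a-5p: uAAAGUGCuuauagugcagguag
miR-18a-5p: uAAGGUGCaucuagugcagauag
miR-19a-3p: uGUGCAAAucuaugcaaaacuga
miR-19b-3p: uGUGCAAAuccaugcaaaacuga
miR-92a-3p: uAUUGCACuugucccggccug
miR-17-5p and miR-20a-5p share 1 seed, miR-19a-3p and miR-19b-3p another, and the remaining pair have 1 each. Transcription of the host is known to depend on MYC. Of 33 measured genes of the MYC network and of MYC-regulated growth, 22 lay below 0 and Mir17hg was the 1 called, with a median of -0.11; Myc itself stood at 0.08, the antagonist Mnt at -0.81 with Cy5 at 0.05, and the partner Max at 0.59. Other noncoding host transcripts moved less: Snhg7 stood at -0.80, Dancr was called lower at -1.21 and Malat1 stood at 0.55.

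Inhibitors of DNA binding, the Id proteins that hold back basic helix-loop-helix factors, were among the lowest genes. Id2 had ratios of 0.73, 0.19, -1.30 and -1.42 over the 4 arrays and Id3 had 0.51, 0.65, -0.81 and -1.14. For both, the untreated and 1 h arrays stood above the 4 h and 6 h arrays. The Cy5 signal of Id2 was 1716 in untreated cells and 200 at 6 h, and that of Id3 was 6047 and 1580. The differences were -2.15 and -1.65, larger still in Cy5 alone (-2.26 and -2.00). Id1 stood at -0.69 in the ratio and at -1.77 in Cy5, since its reference was lower by 1.09. The remaining TGF-beta and BMP feedback genes of this list of 21 were not called: Smad3 stood at 0.07, Smurf1 at 0.20 and Tgif1 at -0.30. Skil, a repressor of SMAD signalling, had 1 probe with 10 spots at -0.64 ± 0.22 (SD of spots) and another at -0.28.

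Trib1, an adaptor that directs C/EBP proteins to degradation, was lower on both probes, at -2.53 and -1.47. Its ratio was 0.50, 0.81, -1.14 and -1.50 in order of time, with Cy5 signals of 918 in untreated cells and 151 at 6 h. The related Trib3 stood at -0.65. Its targets Cebpa and Cebpb both stood at 0.46, and Ddit3, the C/EBP homologue CHOP, at 0.89 with Cy5 higher by 1.06.

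Mat2a, Slc38a2 and Chac1, 3 genes of methionine, amino acid and glutathione handling, were called lower; the first pair are in none of the lists. Mat2a, which makes S-adenosylmethionine, had ratios of 0.48 untreated, 0.55 at 1 h, 0.42 at 4 h and -1.09 at 6 h. Only the last array was low, and both probes gave it, at -1.63 and -1.51. The Cy5 signal was 9150 in untreated cells and 3896 at 6 h. Slc38a2, a neutral amino acid transporter, had 0.28, -0.05, 0.08 and -0.93 and was called at -1.21. Chac1, which degrades glutathione, had -0.16, 1.16, -1.04 and -1.89, so it was highest at 1 h and lowest at 6 h; of its difference of -1.73 the cells' own channel gave -0.77 and the reference 0.96. Both Chac1 and Ddit4 belong to the ATF4 response to amino acid shortage, whose 32 measured members were split 16 above and 16 below 0 with a median of -0.00. Asns, the asparagine synthetase often used to read this response, stood at 0.10, and Atf4 at -0.28.

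The Chac1 promoter is shown because it is the only promoter of a called gene with the C/EBP-ATF response core, TTGCATCA, here in capitals; it covers chr2:119350992-119351241 on the plus strand (RefSeq, GRCm38.p6).
Chac1: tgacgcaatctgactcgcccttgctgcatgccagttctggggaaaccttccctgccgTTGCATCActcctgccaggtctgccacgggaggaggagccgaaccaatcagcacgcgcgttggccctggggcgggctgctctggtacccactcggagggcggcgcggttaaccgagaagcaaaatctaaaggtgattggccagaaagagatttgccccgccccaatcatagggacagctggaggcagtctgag
This core was rare, in 0.612% of all promoters of measured genes and in 6 of 33 promoters of the ATF4 list. Most genes with it were not called, as must be so when 0.923% of measured genes were called.

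Genes of protein folding in the endoplasmic reticulum were below 0 nearly throughout. Of 35 measured genes of the unfolded protein response, 29 lay below 0 in the ratio and 29 in Cy5 alone. In this list 0 were called, beside 0.923% of all measured genes. The median was -0.37 in the ratio and -0.34 in Cy5, beside -0.01 and 0.04 over all measured genes. Manf, a secreted folding factor, stood at -0.93, with Cy5 signals of 16060 untreated and 9631 at 6 h, Herpud1 at -0.90 and Creld2 at -0.78 ± 0.06 (SD of 6 spots). The chaperone Hspa5 (BiP) stood at -0.57 and the transcription factor Xbp1 at -0.68, while the sensor Ern1, which splices Xbp1, stood at 0.34. The median stayed between -0.53 and -0.34 over the ways of processing tried.

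Sterol and fatty acid genes gave 5 calls among 39 measured, all lower, and the reference had moved by at least 1 in 5 genes of the list. Cyp51 (-1.32) and Ebp (-1.03), enzymes of cholesterol synthesis, differed in Cy5 alone by -0.26 and -0.35. The probes of Hsd17b7 disagreed, at -3.45 and -0.20; its mean of -1.83 became -0.21 from processed signals and 0.43 in Cy5 alone. Cyp51 came to -2.23 from processed signals. In the list 32 lay below 0 in the ratio and 22 in Cy5, with medians of -0.22 and -0.07. Lipid handling went partly the other way: Apoe stood at 0.88 ± 0.10 (SD of 9 spots) and Fabp4, a fatty acid carrier of macrophages, at 0.92, while Lpl, the lipoprotein lipase, stood at -0.89.

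Interferon-stimulated genes were mostly lower by less than the rule. Of 49 measured, 39 lay below 0 and Trim25 was called lower, at -1.57 with Cy5 at -0.94; the median was -0.27 in the ratio and -0.30 in Cy5. Ifi204, a DNA sensor, stood at -0.93, Rtp4 and Oas2 both at -0.86, and Igtp, an interferon-induced GTPase, at -0.84 ± 0.07 (SD of 7 spots). Gbp2 (0.36) and Ifit2 (0.33) stood above 0, as did Cxcl10, which interferon also induces. The core TTTCNNTTT of the interferon response element was in 47.1% of 51 promoters of this list and in 7.74% of all promoters, against 11.9% of promoters of higher genes and 8.33% of promoters of lower genes.

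Further genes lower by at least 1 in both the ratio and Cy5 included Lcmt2 (-1.37), Slc16a6 (-1.37), a carrier of the SLC16 family, and Sertad1 (-1.30), a cell cycle regulator; Lcmt2 and Slc16a6 stood at -0.59 and -0.76 when dim probes were kept. Adh6a, at -1.25, was dim, with Cy5 signals of 166 and 21.5, and its value was -3.07 from processed signals.

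**Figure D4:**
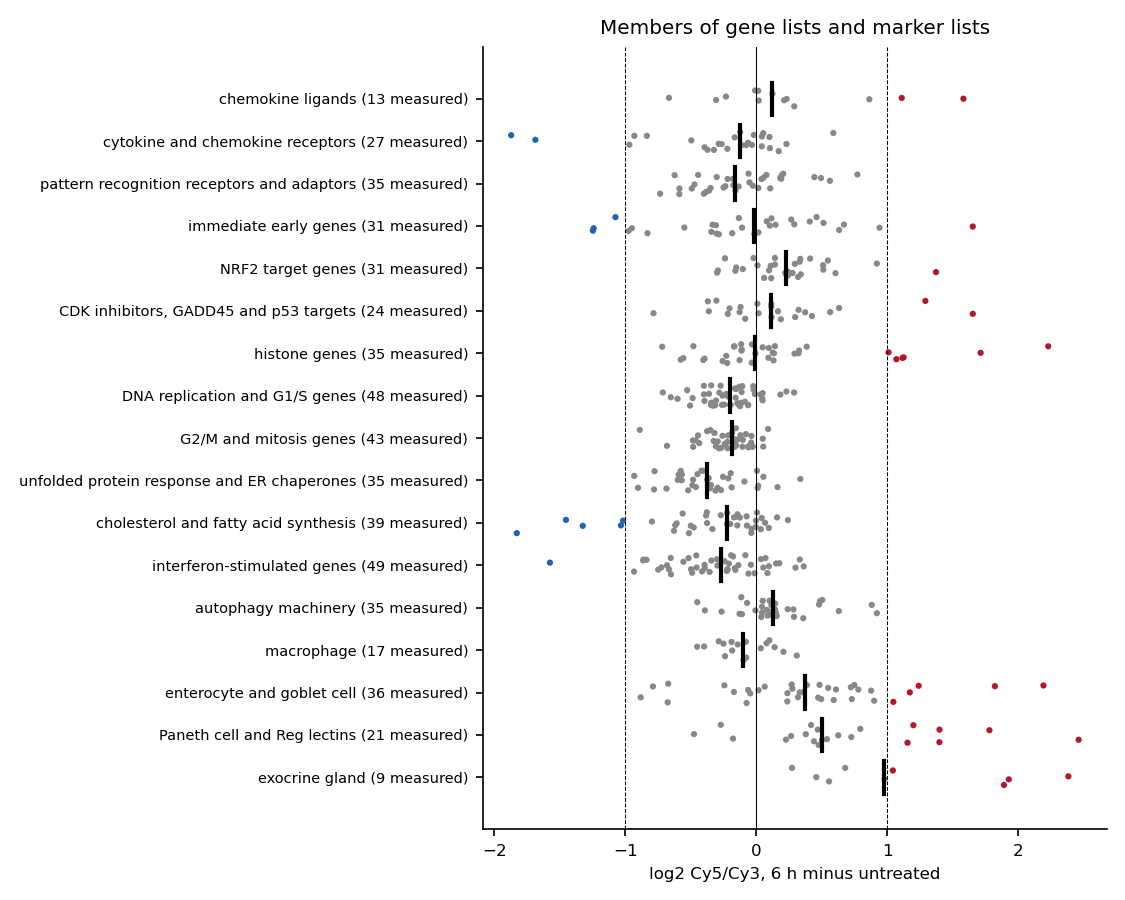
Log2 difference (6 h minus untreated) of the measured members of 17 lists, 1 point a gene, red where called higher, blue where called lower and grey where not called; black bars are medians and dashed lines mark 1 in size. The bar of the unfolded protein response stands at -0.37 and that of the exocrine gland markers at 0.98. The latter median was 0.02 when dim probes were kept.

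Many of the genes called higher are known from tissues other than macrophages. Of the 47 higher genes, 17 belong to marker lists of enterocytes and goblet cells, Paneth cells, smooth muscle and exocrine glands. Of the 48 lower genes 0 do. These lists were chosen with earlier results of these data known, so the split is no independent result. Over all measured genes 0.456% were called higher. Among measured markers, 6 of 21 of Paneth cells and Reg lectins and 5 of 36 of enterocytes and goblet cells were called higher. So were 4 of 9 of exocrine glands and 2 of 10 of smooth muscle. The medians, in this order, were 0.50, 0.37, 0.98 and 0.40. In Cy5 alone they were 0.27, 0.12, 0.74 and 0.33, and in the reference -0.39, -0.24, 0.06 and 0.04. In Cy5 alone 7 of the 21 and 15 of the 36 lay below 0. The exocrine gland median was 0.02 when dim probes were kept, and 9 of its 54 genes on the array were measured. Reg3b, an antimicrobial lectin of the gut, had ratios of -3.86 untreated, 0.32 at 1 h, -0.88 at 4 h and -1.40 at 6 h. Its 6 h value was thus the lowest of the treated arrays and still 2.46 above the untreated one, with Cy5 at 1.69 and the reference at -0.77. Sycn, a protein of pancreatic zymogen granules, had -1.60, 0.04, -2.29 and 0.78, so the 4 h array was the lowest and the 6 h array the highest. Klk1, a glandular kallikrein, had -1.14, -0.14, -0.93 and 0.75 and was called at 1.89; Aqp8, a water channel of colon and pancreas that is in none of these lists, had -1.48, -0.31, -1.99 and 0.21 and was called at 1.69. Tspan1 (2.19), Klk1b5 (1.93) and Mptx1 (1.78) were further calls. Of smooth muscle genes, the myosin light chain Myl9 had ratios of -1.15 untreated and 0.35 at 6 h, and Tagln, an actin-binding protein, had -1.39 and -0.28; both were called, Tagln just missing the rule with median centring. From the processed signals Reg3b, Sycn and Aqp8 came to 3.86, 4.14 and 3.87, and Tspan1 and Klk1b5 to 3.41 and 3.05. These genes were dim in untreated cells, with Cy5 signals of 76.3, 53.8, 28.0, 85.2 and 101 in this order. Each rested on 1 spot, so the sizes are uncertain. Lypd8, a colon protein, was called at 1.82 through its reference, which moved by -1.65 while Cy5 differed by 0.17. Not all such markers were higher: the brush border enzymes Sis and Lct stood at -0.88 and -0.79. Kallikreins of the Klk1 family and alpha-defensins are near-identical copies, so single members are uncertain.

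The same order over the arrays, with 1 h and 6 h above untreated and 4 h, was seen in Ly6a (-1.36, -0.26, -1.29 and 0.52), Ly6c1 (-1.46, -0.61, -1.55 and 0.46) and the acute phase gene Saa1 (-1.45, -0.33, -1.01 and 0.90). Ly6a and Ly6c1 encode surface proteins that interferon induces in many cell types. Adh1, an alcohol dehydrogenase, was lowest at 4 h too (-0.64, -0.60, -1.39 and 0.99). Their differences at 6 h were 1.88, 1.92 (1.25 when dim probes were kept), 2.35 and 1.63, and Saa1 had Cy5 signals of 181 untreated, 974, 522 and 2006. All comparisons of times share the untreated array. From processed signals Ly6a came to 3.03 and Adh1 to 2.66, both dim in untreated cells, with Cy5 signals of 95.9 and 112. In bulk RNA, more cells of a type and more RNA per cell cannot be told apart, and the part of other tissues' RNA in these values was not tested.

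The levels of the markers themselves stood as follows. Of 28 macrophage markers on the array 24 were counted here. Of these 18 were well above background in Cy5 in untreated cells and 19 at 6 h, with summed processed Cy5 signals of 89479 and 96809. Tyrobp, Csf1r and Ctss were bright on both arrays, and Mrc1, Marco and C5ar1 were among those not well above background on either. Their median difference was -0.10 and 0 of 17 measured were called. Of 39 enterocyte and goblet cell markers on the array 38 were counted. Of these 36 and 34 were well above background, with sums of 24777 and 32691, and of 27 Paneth cell markers 23 and 23, with sums of 12170 and 20074. Defa21 alone gave 694 and 4902 of these sums, and its reference read 2403 and 17036. Of 54 exocrine gland markers 16 and 14 were, with sums of 1227 and 4315, and pancreatic enzymes such as Pnlip, Prss1 and Amy2a5 were not well above background on either array. Of 17 smooth muscle markers 13 and 13 were, with sums of 24694 and 27399, of which Flna gave 19433 and 19500.

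The reference was brighter than the samples for intestinal transcripts, less so for smooth muscle and exocrine gland genes, and also brighter for some smaller lists. Over the 4 arrays, its mean signal was above the mean of Cy5 by a median log2 of 1.08 for 36 enterocyte and goblet cell genes and of 1.11 for 21 Paneth cell genes, against 0.02 for 8801 genes and -0.06 for 17 macrophage genes. The median was 0.40 for 8 exocrine gland genes, 0.22 for 10 smooth muscle genes and 0.22 for the 44 genes called higher that had a value. It was 1.42 for 3 hepatocyte genes, 0.71 for 8 genes of fibroblasts, endothelium and other epithelium, and 0.44 for 8 lymphocyte genes. For 2 erythroid and 2 neutrophil genes it was 0.54 and -0.03. In 25 of the 36 enterocyte and goblet cell genes the dimmest of the 4 reference signals was above the brightest of the 4 Cy5 signals. The same held for 8 of the 21 Paneth cell genes, for 3 of the 10 smooth muscle genes and for 6.35% of the 8801 genes. It held for 0 of the 8 exocrine gland and 0 of the 17 macrophage genes. In the hepatocyte, fibroblast and lymphocyte lists it held for 2 of 3, 3 of 8 and 3 of 8 genes, and for 0 of the erythroid and neutrophil genes. The labels describe the reference as a pool of the 4 groups. For the intestinal transcripts these signals do not match that description. The reserve is that the channels carry different dyes and no dye swap was made.

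**Figure D5:**
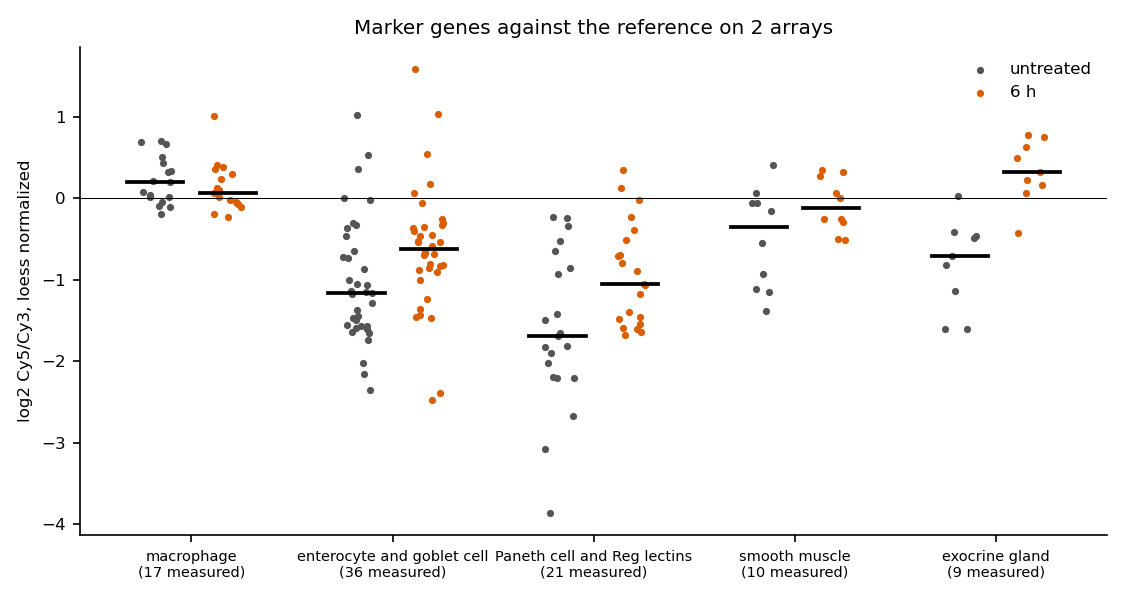
Log2 Cy5/Cy3 of measured marker genes of 5 tissues or cell types on the untreated array (grey) and the 6 h array (orange), 1 point a gene, with black bars at the medians. The medians of the macrophage markers are 0.21 and 0.06, and those of the Paneth cell list -1.69 and -1.05, so the medians of the intestinal lists lie below the reference on both arrays and nearer to it at 6 h.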

How the data were processed

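The submitters' processing notes name Agilent Feature Extraction, version 10.5.1.1, as the image software for the 4 arrays. The deposited scanner files hold median spot and background intensity in each channel, the scanner's processed intensity and its log10 ratio, per the file headers. Per the labels, Cy5 was the sample and Cy3 the reference, with no dye swap. Background was corrected on the deposited median intensities (normexp, offset 50) and each array was loess normalized with limma 3.58.1 in R 4.3.3; control spots had weight 0 and outlier spots were left out. Single-channel values came from Aquantile normalization between arrays, which keeps each ratio. Spots of a probe and probes of a gene were averaged; names came from RefSeq accessions (27649 of 39429 probes matched). The rule of 2-fold had no test, since each group has 1 array.

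Members and the 43 gene lists and 10 marker lists were chosen with earlier results of these data known. Named genes were taken from the 15 highest and 15 lowest called genes whose Cy5 moved by at least 1 the same way. Up to 5 in each direction that were called through the reference were added, of which the higher direction held only Lypd8. Called and most different list members (up to 5 a list) and benchmark genes completed the rule. Ptges, Cdkn1a, Mdm2, Smad3, Smurf1, Tgif1, Asns, Atf4, Hspa5, Ern1, Ifit2, Gbp2, Myc, Max, Fosl1, Jun, Gsr, Sis, Lct, Tyrobp, Csf1r and Ctss lie outside that rule and were chosen after their values were seen. The scripts were tested on simulated data, and 14 settings were tried. No spot was saturated, and 51.4% and 49.5% of Cy5 spots were well above background on the untreated and 6 h arrays. A few genes of these lists are counted but not reported here by name.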

Additional observations from a re-analysis of the deposited data

How the results depend on the processing

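No paired analysis was possible because each group has 1 array, and for the same reason no replicate could be left out. The counts of called genes depended on background treatment and on the reference. From the scanner's processed signals, and likewise from the deposited log10 ratios, 230 genes were higher and 195 lower. Without background subtraction 85 were higher and 66 lower, with a normexp offset of 10 there were 68 and 82, and with a net signal of at least 200 there were 27 and 41. Centring arrays on the median in place of loess gave 41 higher and 109 lower, so 27.3% of calls were higher against 49.5%, and moved the median of all genes to -0.15. Cy5 without the reference gave 160 higher and 217 lower. A 1.5-fold rule gave 209 and 349, and a 3-fold rule 17 and 10. Of the genes called, 47 of 47 higher and 47 of 48 lower were also called from processed signals. In Cy5 alone 9 of the 48 lower genes turned the other way, 5 of them among the genes named by rule: Hsd17b7 at 0.43, Dad1 at 0.62, Ebi3 at 0.62, Plaur at 0.24 and Cfp at 0.10, whose references were higher. When dim probes were kept, Dad1 stood at -0.81, Resf1 at -0.75 and Rgs2 at -0.65. For the other shifts the cause was not tested. Of the 47 higher genes, 30 had a processed Cy5 signal under 500 in untreated cells.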

Other observations

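No autophagy, ribosomal protein or respiratory chain gene was called, beside 0.923% of all measured genes. Of 35 measured autophagy genes 27 lay above 0, with a median of 0.13 in the ratio and 0.26 in Cy5, but with median centring the list's median was -0.01. Map1lc3b, which coats autophagosomes, stood at 0.63 ± 0.12 (SD of 10 spots) and Atg9a, a lipid scramblase of the autophagosome, at 0.88. Cytosolic ribosomal protein genes lay above 0 in 47 of 56 cases, with a median of 0.16, but their median was -0.33 in Cy5 alone and -0.51 in the reference, so the direction depends on the reference. Respiratory chain genes had the same split, at 0.08 in the ratio and -0.15 in Cy5, and turned below 0 with median centring too.

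Acod1, which makes itaconate, stood at 0.41 ± 0.06 (SD of 10 spots), and Hprt, a housekeeping enzyme, at 0.09 ± 0.04 (SD of 9 spots). Gapdh, a glycolytic enzyme, stood at -0.64 with Cy5 at 0.08, and Actb was left out because its spot carried an outlier flag. Among genes not well above background at 6 h, Fabp1, a fatty acid carrier of gut and liver, was at least 2.15-fold lower in Cy5, with a reference that differed by -0.14.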
